A study of Drosophila melanogaster with 5 samples.

Results

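Very long ORFs, those of 6000 nt or more, were collected from lists of translated ORFs in *Drosophila melanogaster* S2 cells. An ORF entered the set when it was classed as a CCDS ORF, one that overlaps a known coding region, and when its length was 6000 nt or more in any of 5 lists. The length is the stop position minus the start position on the transcript, without the stop codon. ORFs with the same transcript and stop in the other lists were added whatever their length. This gave 1637 ORFs, of which 1237 were themselves 6000 nt or more, out of 22869 CCDS ORFs. Because many transcripts share an end, ORFs were grouped by the genomic position of the stop codon, and the very long ORFs fell into 240 stop codons of 7844 in all. They lay in 202 genes, and 2 stop codons could not be placed in a single gene.

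S2 cells are an embryonic, blood-cell-like line. Ribosome profiling was performed under 4 conditions, and 1 of them has both a standard and a deep list, so no condition has established replicates and no test between conditions was made. A-RNaseI (Ambion) was used in 50 mM Tris-HCl, 150 mM NaCl and 10 mM MgCl2, and E-RNaseI (Thermo Fisher) in 100 mM Tris-HCl, 50 mM NaCl and 10 mM MgCl2 per the labels, while the study's methods give less NaCl for the second buffer. Each was applied to cells with (+CHX) or without (-CHX) 3 min of cycloheximide, a drug that stops elongating ribosomes. E-RNaseI -CHX also has a sample labelled deep (E-RNaseI -CHX deep), and the labels do not say how it differs from the standard one. Cycloheximide was present in the wash and lysis buffers of all samples, so -CHX means no treatment of the living cells. RNase and buffer changed together and cannot be told apart.

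A ribosome protects the stretch of mRNA it sits on, and the position of its P-site in each protected fragment shows which codon was being read. RiboTaper calls an ORF from P-sites that step codon by codon, and places the start at the most upstream in-frame AUG with enough P-sites before the next AUG, so the called start depends on where P-sites fall. Very long ORFs encode giant structural proteins (spectrins, spectraplakins, dyneins), extracellular matrix proteins, ubiquitin ligases, chromatin regulators and lipid transfer proteins. Each keeps many ribosomes on 1 mRNA and takes correspondingly long to translate.

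The very long ORFs had a median length of 7402 nt, with quartiles at 6454 and 9549 nt. Of the 240 stop codons, 137 had a form of 7000 nt or more, 48 of 10000 nt or more, 13 of 15000 nt or more and 5 of 20000 nt or more. Their coding sequence was split over a median of 11 exons, against 8 for ORFs of 3000 to under 6000 nt and 4 for those of 1000 to under 3000 nt. At 156 of 240 stop codons (65.0%) there were 10 exons or more, and at 1 there was a single exon. The median genomic span was 11.9 kb and the widest 133 kb. By chromosome, 62 lay on 3R, 53 on X, 51 on 3L, 41 on 2R, 32 on 2L and 1 on 4. The X chromosome had the highest share of very long ORFs among its stop codons, 4.05% (95% Wilson interval 3.11 to 5.26), and 2L the lowest of the large arms at 2.33% (1.66 to 3.27), with intervals that overlap. Intervals here and below cover counting error only. In 177 genes there was 1 such stop codon, in 15 there were 2, in 9 there were 3, and CG34417 had 4, so neighbouring members often shared most of their codons.

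The limit of 6000 nt cut through a continuous range. Just above it were ORFs of Gug, which encodes the corepressor Atrophin (6018 and 6021 nt), and of E(Pc), Enhancer of Polycomb (6021 nt). Just below it were Camta, a calmodulin-binding transcription factor (5964 nt), Svil, Supervillin (5979 nt), and Sbf, a myotubularin-family protein (5979 nt). The same gene could lie on both sides, since Camta and Svil had other ORFs inside the set. Length also varied by list at the edge, and the Gug ORF of 6018 nt was called at 5838, 5796, 6018, 6018 and 5796 nt in A-RNaseI +CHX, E-RNaseI +CHX, A-RNaseI -CHX, E-RNaseI -CHX and E-RNaseI -CHX deep. Values for the 5 lists are given in this order throughout.

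The longest ORFs showed how far this reading reached. The longest was that of dpy, which encodes Dumpy, a giant matrix protein that anchors epithelia to the cuticle, on the minus strand at chr2L:4479541-4574336 (release 6 coordinates) with 81 exons. It was called at 68847, 68847, 60726, 65979 and 68847 nt, the full form in both +CHX lists and the deep list and a shorter one in both standard -CHX lists. It rested on few P-sites, with 24, 53, 18, 19 and 239, or 0.347 P-sites per 100 nt in the deep list. Msp300, a nesprin that holds nuclei in place (chr2L:5154580-5205346), reached 40620 nt and carried far more P-sites, 477, 930, 456, 457 and 7219. Its called lengths of 39393, 40233, 40095, 39393 and 40620 nt differed in 4 starts but by little of the whole.

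The ORF of shot, Short stop, a spectraplakin that joins actin to microtubules, was 25863 nt long in all 5 lists. HUWE1, a HECT-type ubiquitin ligase (chrX:15714116-15731146), was likewise 15453 nt in every list. For kis, a chromatin remodeller of the CHD family, the called lengths were 13776, 16551, 11157, 13776 and 16272 nt. The gene poe, an N-recognin-type ubiquitin ligase, was called at 15144, 15966, 15966, 15516 and 15966 nt. CG13185 was called at 16578 nt in 4 lists and at 15963 nt in A-RNaseI -CHX. The CG34417 ORF of 15546 nt was not called with either A-RNaseI sample and rested on 33, 9 and 187 P-sites in the others.

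A pair of the longest ORFs depended on 1 list. The 46434-nt ORF of sls, Sallimus, a titin-like protein of muscle, was called only in E-RNaseI +CHX, from 6 P-sites, the lowest number in any list, and the deep list held no ORF at its stop codon. In the other lists, ORFs of sls at other stops were at most 2796 nt. The 16662-nt ORF of spen, a transcriptional regulator with RNA-binding domains, was also called only in E-RNaseI +CHX, but with 371 P-sites, and its stop codon was found in all 5 lists on other transcripts. Of these, 1 spen transcript was called at 15918 nt in A-RNaseI +CHX, 15174 nt in E-RNaseI -CHX and 10134 nt in A-RNaseI -CHX.

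**Figure D1:**
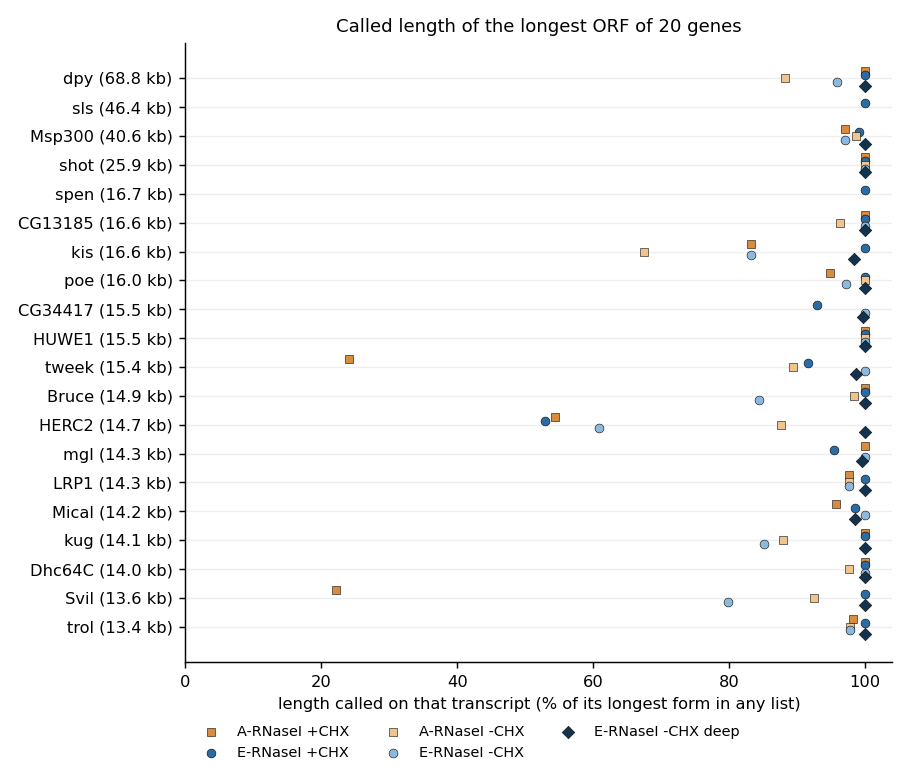
Called length of the longest ORF of the 20 genes with the longest ORFs, as a percentage of the longest form in any list (x axis) on 1 transcript per gene (y axis, with the longest form in kb); each point is 1 list, and a missing point means that the transcript and stop were not called there. HUWE1 and shot lie at 100% in all 5 lists, whereas kis, tweek, HERC2 and Svil are spread widely.

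The first comparison asked how many of the 240 stop codons each condition recovered. An ORF of 6000 nt or more was called at 148, 202, 126, 156 and 229 of them. Counted by gene, this was 126, 168, 103, 124 and 192 genes. The deep list was the most complete, E-RNaseI +CHX the most complete of the 4 standard lists, and A-RNaseI -CHX the least. Very long ORFs made up 2.84%, 2.92%, 2.75%, 2.69% and 2.97% of the CCDS stop codons of each list, and the 95% Wilson intervals of these shares all overlapped.

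Between conditions, E-RNaseI +CHX held 1.29 times as many very long ORFs as E-RNaseI -CHX (95% Wilson interval 1.05 to 1.59), and the ratio over all CCDS stop codons was 1.20. With A-RNaseI the +CHX list held 1.17 times as many (0.927 to 1.49), against 1.14 over all. Between the RNase conditions, E-RNaseI gave 1.36 times as many as A-RNaseI with +CHX (1.104 to 1.687) and 1.24 times with -CHX (0.980 to 1.56), where all CCDS stop codons gave 1.33 and 1.26. The intervals of these ratios treat the 2 counts as independent, although many stop codons were called in both lists. They therefore do not measure the spread of the ratio. In each of these 4 pairs the ratio over all CCDS stop codons lay inside the interval, but no conclusion is drawn from that. The deep list held 1.47 times as many as the standard E-RNaseI -CHX list (1.20 to 1.80), against 1.33 over all. The sources used here do not state whether both came from 1 library.

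With any start counted, the stop codon was found in 210 (87.5%), 234 (97.5%), 203 (84.6%), 225 (93.8%) and 239 (99.6%) of 240. Over all 7844 CCDS stop codons the shares found were 66.5%, 88.2%, 58.5%, 73.8% and 98.3%. In the 4 standard lists the share rose with each length class, in A-RNaseI -CHX from 44.2% under 1000 nt through 62.5% and 76.9% to 84.6% at 6000 nt or more. Very long ORFs were thus recovered more often than shorter ones, and 191 of 240 (79.6%) were found in all 5 lists, against 49.1% of all CCDS stop codons. Members entered by a long form in any 1 list, and each class was set in the same way.

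At many stop codons the standard lists held only a shorter ORF, which could be on another transcript. The stop codon was found only with an ORF under 6000 nt at 62, 32, 77, 69 and 10 of 240, and no ORF was called at 30, 6, 37, 15 and 1. An ORF of 6000 nt or more was called in all 5 lists at 88 stop codons. Followed on 1 transcript per stop codon, the longest form of any list was the form called at 75 of 203 transcripts found in A-RNaseI +CHX (36.9%) and 140 of 233 in E-RNaseI +CHX (60.1%). In the -CHX lists this was so for 43 of 194 with A-RNaseI (22.2%) and 75 of 217 with E-RNaseI (34.6%), and for 181 of 237 in the deep list (76.4%). The median called length was 96.5%, 100%, 90.4%, 95.5% and 100% of the longest form. Among the shortened forms, 64 of 128, 57 of 93, 54 of 151, 64 of 142 and 49 of 56 kept 90% or more of the longest form. The longest form was taken over these same lists, so shorter forms elsewhere follow in part from that choice. Other length classes were not followed in this way, so these shares are not particular to very long ORFs.

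**Figure D2:**
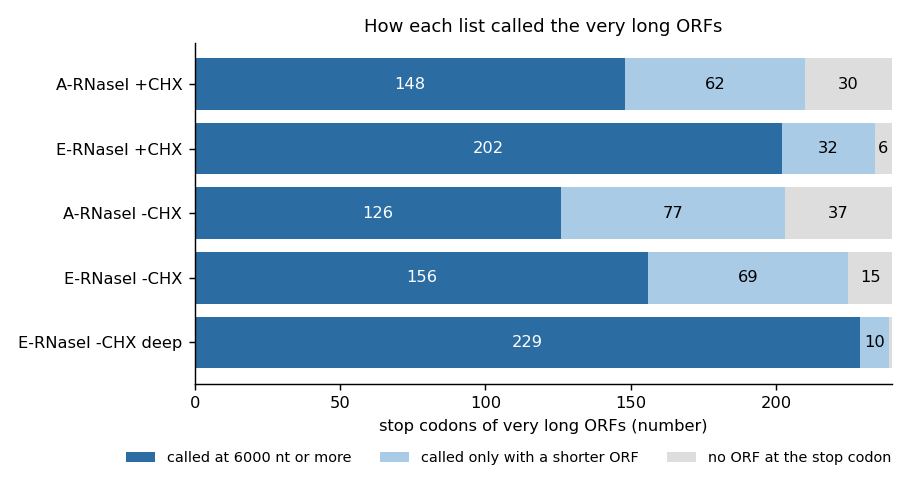
The 240 stop codons of very long ORFs (x axis) split in each list (y axis) into those called with an ORF of 6000 nt or more, those called only with a shorter ORF, and those with no ORF. The shorter class holds 77 stop codons in A-RNaseI -CHX and 10 in the deep list, and the unlabelled remainder of the deep list is 1 stop codon.

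Some members were seen only in the deep list. The deep list alone held a stop codon for 6 genes: Hml, Dhc36C, Myo10A, Ten-a, NaCP60E and zye. Hml encodes Hemolectin, a clotting protein used as a blood-cell marker, and its ORF of 10995 nt carried 52 P-sites. The others carried 6 (Dhc36C, a dynein heavy chain, Myo10A, an unconventional myosin, and Ten-a, a teneurin), 11 (NaCP60E, a sodium channel family member) and 19 P-sites (zye). Of the 237 transcripts followed in the deep list, 12 had under 1 P-site per 100 nt, 91 under 10, and 10 had 100 or more. Fewer mRNAs and fewer ribosomes on each mRNA cannot be told apart in these counts.

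The second comparison took the P-sites along the very long ORFs. Medians were taken over those of the 240 stop codons found in each list, on the longest form called there, which could be under 6000 nt. Per 100 nt they were 1.58, 2.68, 1.25, 1.14 and 13.8 P-sites, the lowest of the 4 length classes in every list. In the deep list the median was 50.9 under 1000 nt, 23.4 from 1000 to under 3000 nt and 16.1 from 3000 to under 6000 nt. Summed over the ORF the order was the reverse, with a median of 1108 P-sites per very long ORF in the deep list against 620, 389 and 292 for the shorter classes in falling order of length. By these medians, very long ORFs held more P-sites in all and fewer per nt. No listed ORF had under 6 P-sites, so the lowest density that can be listed is higher for shorter ORFs. In the deep list the lowest was 0.637 per 100 nt under 1000 nt and 0.0582 for very long ORFs. The part of this floor in the order of the medians was not tested.

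The highest densities in the deep list were those of FASN1, Tig and LanA. FASN1, fatty acid synthase (chr2L:3059909-3067501), had 6440, 13804, 4620, 4967 and 70311 P-sites over 7314 nt, which is 961 per 100 nt in the deep list. Tig, Tiggrin, an integrin ligand made by blood cells, followed with 509 per 100 nt, and LanA, the laminin alpha chain (chr3L:6204178-6217814), with 408. LanA had 4363, 7638, 3776, 3259 and 45414 P-sites over 11136 nt. These 3 genes stood above zip, the non-muscle myosin heavy chain, at 310 per 100 nt, alpha-Spec, alpha-Spectrin of the membrane skeleton, at 244, and Dscam1, a cell-surface immunoglobulin receptor, at 213. The next were beta-Spec (beta-Spectrin) at 170, ACC (acetyl-CoA carboxylase, the step before fatty acid synthase) at 121, msps (a microtubule polymerase) at 120 and Ten-m (a teneurin) at 113, each on its densest form of 6000 nt or more. The forms of zip, Dscam1 and msps, 6033, 6015 and 6057 nt long, lay close to the limit.

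By role, lists of genes for giant proteins were followed whether or not an ORF was called. The share called among all genes with a coding sequence of 6000 nt or more was not computed. The counts below therefore describe the listed genes only and do not show that a group departs from a general rate. Of 28 cytoskeleton and motor genes, 14 had an ORF of 6000 nt or more, 2 had only shorter ones and 12 had none. The cytoplasmic dynein heavy chain Dhc64C was called at 13983, 13983, 13647, 13983 and 13983 nt with 9355 P-sites in the deep list. The axonemal heavy chains Dhc62B, Dhc93AB, Dhc16F and Dhc98D and the male-germline kl-2, kl-3 and kl-5 had no ORF, but Dhc36C had one in the deep list, from 6 P-sites. The muscle proteins differed among themselves. No ORF was called for bt (projectin) and Obsc (listed under its older name Unc-89), and none could be placed in Strn-Mlck alone. The long form of sls rested on 1 list, while zormin, a Z-disc protein, was called at 9237, 9231, 8826, 10992 and 10827 nt with 277 P-sites in the deep list. The neuronal microtubule protein futsch had no ORF, whereas zip had 18703 P-sites in the deep list.

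Of 23 adhesion, matrix and receptor genes, 13 had a very long ORF, 2 a shorter one and 8 none. The atypical cadherins ft (Fat) and ds (Dachsous) and the cadherin stan (Starry night) had no ORF, while kug, the other Fat-like cadherin, was called at 14088, 14088, 12378, 11985 and 14088 nt. The Notch receptor gene N was called at 5508 nt at most, from 150 P-sites in the deep list, and was absent from both standard -CHX lists. The second laminin alpha chain wb and the yolk receptor yl had no ORF.

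Of 20 chromatin and transcription genes, 17 had a very long ORF and 3 a shorter one. These included the histone methyltransferases trx and trr, the acetyltransferase nej, the acetyltransferase-complex scaffold Nipped-A and the nuclear pore protein Mgtor (listed under its older name Mtor), and the group's median was 18.4 P-sites per 100 nt in the deep list. Very long forms were called for 13, 16, 7, 11 and 17 of them. Over all 240 stop codons the shares with a form of 6000 nt or more were 61.7%, 84.2%, 52.5%, 65.0% and 95.4%, so this group too was least complete in A-RNaseI -CHX. Of 10 ubiquitin ligase and protease genes 9 had a very long ORF, in 8 or 9 genes of every list, and for hiw, a ligase of neurons, none could be placed in the gene alone.

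Of the remaining groups, membrane traffic and lipid transfer had 9 of 11 genes with a very long ORF, among them the bridge-like lipid transfer proteins Vps13, Vps13B, Vps13D, tweek and hob. RNA and translation genes had 5 of 6, including Prp8 and Brr2 of the spliceosome, Not1 of the deadenylase complex and Dcr-1, the microRNA-processing Dicer. The kinases and polymerases had 5 of 6, including mei-41 (ATR), tefu (ATM) and mTor, the growth-regulating kinase (listed under its older name Tor). The mTor ORF was called at 5820, 7047, 7047, 7047 and 7413 nt, with 1669 P-sites in the deep list. Of 5 metabolic genes FASN1, ACC and r (the pyrimidine synthesis enzyme Rudimentary) had one, and FASN2 and FASN3 had no ORF. Among 7 channels, Itpr (the inositol trisphosphate receptor, 8511 nt) and Piezo (a mechanosensitive channel, 8811 nt) had one, and RyR, cac, para, nompC and na, channels of muscle and neurons, had no ORF.

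The third comparison asked how often the called start moved. Where a stop codon was found in both lists on a shared transcript, the start differed between E-RNaseI +CHX and -CHX at 167 of 225 very long ORFs (74.2%, 95% Wilson interval 68.1 to 79.5), against 47.6% of all CCDS stop codons. It lay upstream with +CHX at 127 and downstream at 40. With A-RNaseI it differed at 148 of 191 (77.5%, 71.1 to 82.8), against 54.6% of all, upstream with +CHX at 100 and downstream at 48. The upstream shares were 76.05% with E-RNaseI and 67.57% with A-RNaseI, near the 76.65% and 64.42% over all CCDS stop codons. In the standard lists, treated cells thus gave the longer form more often in both RNase conditions, for very long ORFs and for all CCDS stop codons alike.

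Between E-RNaseI and A-RNaseI the start differed at 141 of 210 with +CHX (67.1%, 60.5 to 73.1), against 43.7% of all, and at 131 of 200 with -CHX (65.5%, 58.7 to 71.7), against 49.4% of all. E-RNaseI had the upstream start at 107 and the downstream start at 34 with +CHX, a share upstream of 75.89% against 76.59% over all CCDS stop codons. With -CHX these counts were 73 and 58, a share upstream of 55.7% whose interval (47.2 to 64.0) includes an even split. Over all CCDS stop codons this share was 58.55%. The deep list and the standard E-RNaseI -CHX list differed at 162 of 225 (72%, 65.8 to 77.5), against 47.9% of all. The deep start lay upstream at 136 of these (83.95%), against 85.98% over all CCDS stop codons. The deep list and E-RNaseI +CHX were the most alike, differing at 96 of 233 (41.2%, 35.1 to 47.6), against 27.6% of all. Here the untreated deep list had the upstream start at 75 and the treated list at 21, the reverse of the order in the standard lists. The deep share upstream was 78.1%, against 71.0% over all CCDS stop codons, and the deep list holds far more P-sites.

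The share rose with length. For E-RNaseI with and without CHX it was 29.0% under 1000 nt, 49.8% from 1000 to under 3000 nt, 68.7% from 3000 to under 6000 nt and 74.2% for the very long ORFs. From the third class to the very long ORFs the intervals overlapped in all 6 pairs, and for E-RNaseI against A-RNaseI with -CHX and for deep against standard the very long ORFs were not above the third class. Where starts moved, the median distance between them was 882 nt with E-RNaseI and 1034 nt with A-RNaseI between +CHX and -CHX. This was 11.2% and 15.1% of the longer form, a smaller part than the 15.7% and 20.5% over all CCDS stop codons.

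Density moved with this result and is given beside it. Among very long ORFs in the E-RNaseI pair, the start differed at 33 of 36 (91.7%) with under 5 P-sites per 100 nt in the deep list, 38 of 41 (92.7%) from 5 to 10, 50 of 62 (80.6%) from 10 to 20, 35 of 53 (66.0%) from 20 to 50 and 11 of 33 (33.3%) at 50 or more. ORFs of 1000 to under 3000 nt in the same bins gave 62.2%, 63.1%, 62.8%, 54.7% and 35.0%. The very long ORFs were higher than these in the 4 sparser bins, with intervals that overlapped from 20 to 50, and not in the densest. ORFs of 3000 to under 6000 nt gave 75.5%, 76.4%, 78.0%, 65.4% and 48.3%. Their intervals overlapped those of the very long ORFs in every bin, so the very long ORFs were not set apart from the class below at like density. The other pairs were not alike in this. Between E-RNaseI and A-RNaseI with +CHX, the very long ORFs were higher than ORFs of 1000 to under 3000 nt in every bin. The intervals overlapped except from 5 to 10 and from 20 to 50 per 100 nt. They overlapped those of ORFs of 3000 to under 6000 nt in every bin, and in the densest the very long ORFs were lower (30.3% against 42.7%). With -CHX, the E-RNaseI and A-RNaseI starts differed less often for very long ORFs than for ORFs of 1000 to under 3000 nt from 10 to 20 per 100 nt (64.4% against 72.4%) and from 20 to 50 (52.8% against 61.2%), with intervals that overlapped. In the A-RNaseI pair the very long ORFs were higher in the densest bin (66.7% against 43.5%). With at least 50 P-sites in both lists the share in the E-RNaseI pair was 60.9% (52.4 to 68.8) for very long ORFs and 34.7% for all. For ORFs of 3000 to under 6000 nt it was 51.9% (46.8 to 57.0), an interval that overlaps that of the very long ORFs. The part of density in the result was not tested further.

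**Figure D3:**
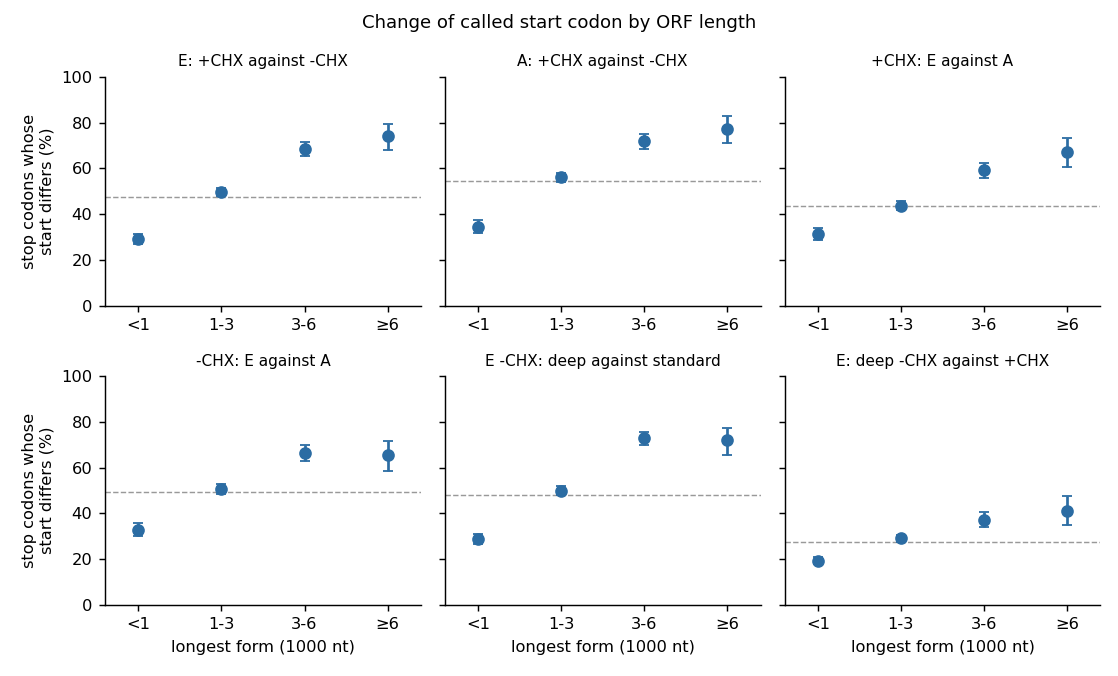
Share of stop codons whose called start differs between 2 lists (y axis, %) by the longest form of the ORF (x axis, 1000 nt), for 6 pairs of lists; bars are 95% Wilson intervals and the dashed line is the share over all CCDS stop codons. In the first panel the share runs from 29.0% to 74.2%.

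In the E-RNaseI pair, the start that moved farthest was that of skd. It encodes a Mediator kinase-module subunit and lost 7368 nt between +CHX and -CHX, being called at 8304 nt from 116 P-sites and at 936 nt from 13. Next came the gene for Furry, fry, a regulator of NDR kinases, followed by mv (the lysosome-related protein Mauve), Plp (the centrosomal Pericentrin-like protein) and CG11122, with 40, 15, 26 and 8 P-sites in the -CHX list. In each of these 5 the longer form was the one with more P-sites, which follows in part from its length. Between E-RNaseI and A-RNaseI with +CHX, the farthest were Svil, Supervillin of the cortical actin network, called at 13578 nt from 613 P-sites against 3000 nt from 141, and tweek, at 14139 nt from 102 against 3711 nt from 10.

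Those 2 genes were long again with A-RNaseI once CHX was left out. The Svil transcript was called at 12552 nt from 214 P-sites in A-RNaseI -CHX against 3000 nt from 141 in A-RNaseI +CHX, and tweek at 13797 nt from 42 P-sites against 3711 nt from 10. They had the largest distances of the A-RNaseI pair, and both ran against the main direction. Across the 5 lists, 177 of the followed transcripts were called in all of them, and these had 1 start in 19 cases, 2 in 40, 3 in 56, 4 in 43 and 5 in 19. A different start in every list, as for tweek, was thus as frequent as a single one.

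The same ORF of 6000 nt or more was called in all 5 lists at 20 stop codons of 15 genes: FASN1, LanA, alpha-Spec, trol, Not1, cher, hyd, teq, PAPLA1, HUWE1, shot, mud, ctrip, Su(var)2-HP2 and scrib. With any length counted, 23 of the 191 stop codons of very long ORFs found in every list had an identical ORF in all 5 (12.04%, 95% Wilson interval 8.16 to 17.4). The share was 13.0% from 3000 to under 6000 nt, 28.7% from 1000 to under 3000 nt, 49.8% under 1000 nt and 30.2% over all CCDS stop codons. The 15 genes code for a fatty acid synthase, matrix proteins, spectrin, the filamin Cheerio (cher), the ubiquitin ligases hyd, HUWE1 and ctrip, the spindle protein mud and the polarity protein scrib, among others. Their density in the deep list ranged from 961 per 100 nt for FASN1 to 13.6 for the longest shot form. For alpha-Spec the P-sites were 1512, 3405, 1175, 1202 and 17691, and for HUWE1 331, 698, 279, 294 and 3945.

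**Figure D4:**
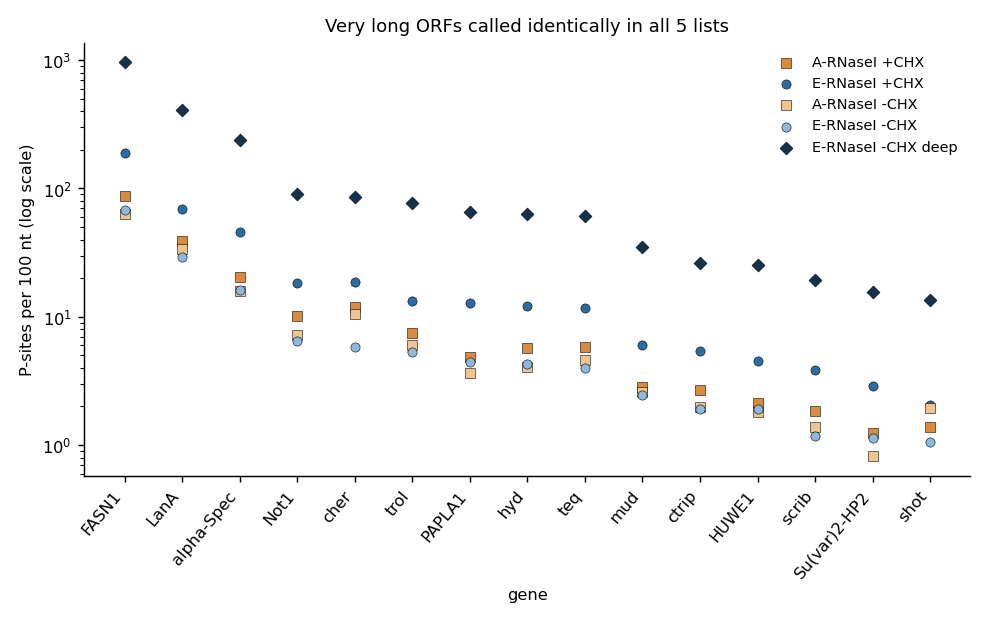
P-sites per 100 nt (y axis, log scale) for the longest ORF called identically in all 5 lists in each of 15 genes (x axis); each point is 1 list. E-RNaseI +CHX is the highest of the 4 standard lists in all 15 genes, and for shot the A-RNaseI -CHX point (1.93) lies above A-RNaseI +CHX (1.39) and close to E-RNaseI +CHX (2.04).

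The fourth comparison used ORFs with the same start and stop in both lists, the longest per stop codon, so that a moved start could not change the count. On 62 very long ORFs, E-RNaseI +CHX had 68363 P-sites and -CHX 25601, a ratio of 2.67 (95% exact interval 2.63 to 2.71). The ratio fell with length, from 3.23 under 1000 nt through 3.03 and 2.85. With A-RNaseI it fell likewise, from 1.47 through 1.41 and 1.34 to 1.24 (1.22 to 1.27) on 38 very long ORFs. Over all CCDS ORFs it was 3.07 and 1.41. By summed P-sites, the very long ORFs thus had the lowest ratio in both RNase conditions. The median ratio of single ORFs was also the lowest with A-RNaseI, 1.245 against 1.341 in the class below, but with E-RNaseI it was 2.78 in both of these classes, against 3.02 and 3.25 in the shorter ones.

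The same fall appeared when only ORFs called identically in all 5 lists were summed, from 3.20 to 2.65 with E-RNaseI and from 1.47 to 1.25 with A-RNaseI. The deep list against E-RNaseI +CHX gave the corresponding rise, from 4.31 under 1000 nt through 4.66 and 4.94 to 5.36 (5.32 to 5.39) on 135 very long ORFs. Both of these comparisons share lists with the first. Deep over standard E-RNaseI -CHX was nearly level with length, at 14.1, 14.1, 14.3 and 14.2. Each ratio also carries the P-site totals of its lists, so levels are not compared between pairs.

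E-RNaseI over A-RNaseI showed no such trend, at 2.09, 1.92, 2.01 and 2.05 (2.02 to 2.07, 74 very long ORFs) with +CHX. With -CHX it was 0.951, 0.898, 0.946 and 0.974 (0.956 to 0.991, 56 very long ORFs). Over all CCDS ORFs it was 1.99 and 0.925, so values on either side of 1 here reflect the P-site totals of the lists as well.

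**Figure D5:**
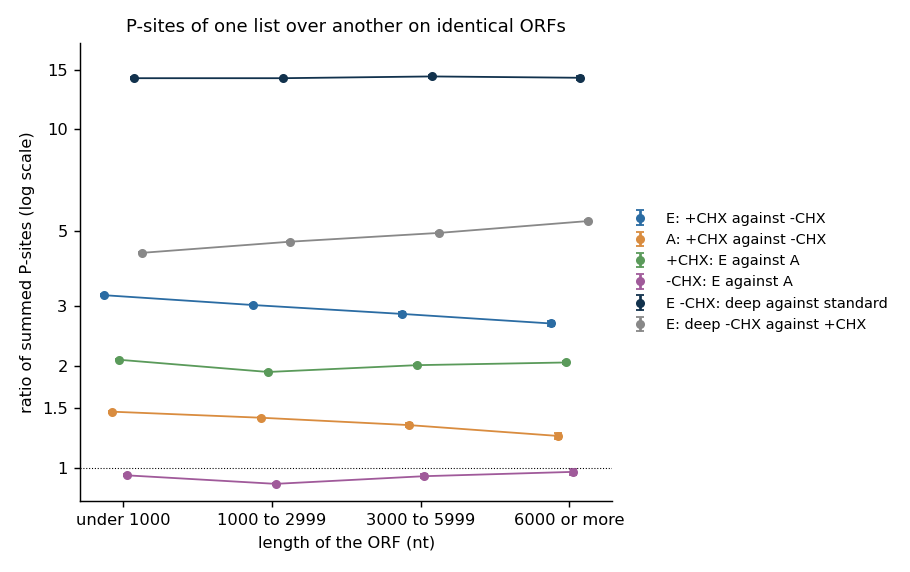
Ratio of summed P-sites between 2 lists (y axis, log scale) on ORFs with the same start and stop, by length of the ORF (x axis, nt), for 6 pairs of lists; bars, mostly smaller than the points, are 95% exact binomial intervals. Both +CHX against -CHX lines fall with length (3.23 to 2.67 with E-RNaseI, 1.47 to 1.24 with A-RNaseI), and deep -CHX against +CHX rises (4.31 to 5.36).

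Among single very long ORFs with at least 100 P-sites in each list, shot had the lowest ratio of +CHX over -CHX with A-RNaseI. The longest shot form had 359, 527, 499, 272 and 3511 P-sites. Its ratio was 0.719 (0.626 to 0.826), which is 0.509 times that of all CCDS ORFs. With E-RNaseI it was 1.94 (1.67 to 2.25), or 0.632 times, where Mgtor (0.595 times) and CG12499 (0.617 times) lay lower. In both pairs shot was thus below the ratio of all CCDS ORFs, as were most of these very long ORFs. For cher the P-sites were 858, 1358, 764, 422 and 6143, and its ratios of 1.12 with A-RNaseI and 3.22 with E-RNaseI were 0.794 and 1.05 times those of all. For E-RNaseI over A-RNaseI with -CHX, forms of shot and cher had the lowest ratios, at 0.545 (0.468 to 0.633) for the longest shot form and 0.552 (0.489 to 0.623) for cher, against 0.974 for the summed very long ORFs. With +CHX they were 1.47 and 1.58, or 0.737 and 0.794 times the ratio of all, also below it. These ORFs were picked out after their values were seen, and several shot and cher transcripts share the same P-sites.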

How the data were processed

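Per the labels and the study's methods, the authors trimmed reads with cutadapt 2.10, removed rRNA and tRNA reads with Bowtie2 2.4.1, aligned with STAR 2.7.5c and SAMtools 1.10, subsampled reads (the deep list holds far more counts than the standard ones), called ORFs with RiboTaper and filtered ORFs supported by multimapping reads. The authors deposited 1 list per sample, in which each ORF has a whole-number count, read here as its P-site count because it is the same on all exon lines and at least 6, although the files do not name the column. Reads were not used here, so the depth of a list is known only through these counts.

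Exon lines were joined into ORFs and genes assigned by position in the span of 1 protein-coding RefSeq gene (release 6, ignoring strand, ORFs in shared spans given to no gene; symbols through synonyms, Tor and Mtor read as mTor and Mgtor, Gcn1 unmatched). Python 3.11.15, pandas 2.3.3, numpy 2.4.6 and scipy 1.17.1 were used. Intervals are 95% Wilson (shares, and ratios of numbers of stop codons) or exact binomial (ratios of P-sites). No test was run, since no condition has established replicates. On a simulated pair of lists with 1 ORF per stop codon, 6 of 6 known values were recovered within tolerance. These were numbers of pairs, numbers of differing starts and P-site ratios. Other steps, such as gene assignment, were not checked in this way.

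For each stop codon and pair of lists, starts were compared on the shared transcript with the longest form in either list, and length classes took the longest form in any list. Named genes were those with the 10 longest ORFs, the 10 highest deep densities, identical ORFs in all 5 lists, the largest start distances, the role lists, the ORFs next to the limit and those missing from the deep list; single-ORF ratios were added after their values were seen. Members and lists were chosen with earlier results of these data known. Density bins, the ratio without FASN1 and LanA, and the ratio on ORFs shared by all 5 lists were chosen after seeing the data. Other length limits, P-site minimums and units of counting were tried. A planned comparison with RefSeq protein lengths was not run, and sequences were not used here.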

Additional observations from a re-analysis of the deposited data

How the results depend on the processing

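No paired analysis was possible because no condition has established replicates. For the lists in the order A-RNaseI +CHX, E-RNaseI +CHX, A-RNaseI -CHX, E-RNaseI -CHX and deep, the number of very long ORFs became 437, 564, 312, 393 and 617 with every identifier counted, 239, 326, 203, 246 and 360 with a limit of 5000 nt, and 47, 59, 37, 48 and 66 with a limit of 9000 nt. Counting genes or asking for 20 or 50 P-sites moved no number by over 1.5 times. The share found fell to 61.7%, 84.2%, 52.5%, 65.0% and 95.4% when only forms of 6000 nt or more counted, and with a limit of 9000 nt to 81.2% and 78.3% in the A-RNaseI lists. Loci chosen from the deep list gave 100% in that list, and loci chosen from the 4 standard lists gave 100% in E-RNaseI +CHX, the former by construction.

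The share of differing starts was 60.9% and 68.9% for +CHX against -CHX (E-RNaseI, A-RNaseI), 60.3% and 52.5% for E-RNaseI against A-RNaseI (+CHX, -CHX), 60.9% for deep against standard and 33.3% for deep against E-RNaseI +CHX with at least 50 P-sites in both lists. Comparing every transcript and stop gave 48.4% and 50.8% for the RNase pairs and 32.0% for deep against E-RNaseI +CHX, and a limit of 9000 nt gave 79.7% for the E-RNaseI pair. The cause of these changes was not tested.

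The ratio of P-sites with a limit of 9000 nt was 2.46 and 1.12 for +CHX over -CHX, 1.93 and 0.904 for E-RNaseI over A-RNaseI, 13.9 for deep over standard and 5.59 for deep over E-RNaseI +CHX (5.27 at 5000 nt). The median of single ORFs was 2.78 for the E-RNaseI pair. It turned E-RNaseI over A-RNaseI with -CHX from 0.974 to 1.03, so that this ratio has no settled direction. Without FASN1 and LanA the A-RNaseI ratio was 1.21. On ORFs shared by all 5 lists E-RNaseI over A-RNaseI was 1.97 and 0.931. The remaining alternatives stayed within the counting interval. Without established replicates, differences between conditions have no replicate check.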
